A study of Mus musculus with 8 samples.

Results

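Chromatin accessibility was compared between the 2 ATAC-seq peak lists of B3 cells before induction and the 2 lists taken after 30 min of induction, out of 8 lists that cover the first 2 h. Peaks of the 4 lists that overlapped by at least 1 bp were merged, which gave 138154 regions. Of these, 7652 had a peak in both 0h lists and in neither 30min list and are called lost, 7584 had a peak in both 30min lists and in neither 0h list and are called gained, and 55702 had a peak in all 4 lists and are called kept. The other regions had a peak in some but not all lists of a time. A lost region is a region where no peak was called, which is not the same as closed chromatin. All cells were of B3, a mouse pre-B line, with the genotype B3 transduced with Ikaros-ERt2, and grew in serum-containing medium. The 0h cells had no treatment and the 30min cells had 500 nM 4-hydroxytamoxifen (4-OHT). The cells were a retrovirally transduced pool sorted for GFP. Whether both replicates came from the same transduced pool is not stated. Because 0h cells had neither 4-OHT nor its solvent, and no line with ERt2 alone is in the comparison, responses to the drug and to the fusion protein cannot be told apart. The lists hold no measure of how much fusion protein had entered the nucleus.

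Ikaros, the product of Ikzf1, is a zinc-finger transcription factor that pre-B cells need to stop dividing and to mature, and its loss is a known event in B-cell leukaemia. It binds DNA at short words with a GGAA or GGGA core and works with the NuRD complex, which carries the chromatin remodeller CHD4 and histone deacetylases. ERt2, a mutated hormone-binding domain of the estrogen receptor, keeps a fusion protein out of the nucleus until 4-OHT binds it. In ATAC-seq the transposase Tn5 cuts open DNA, and fragments too short to span a nucleosome mark DNA on which transcription factors sit.

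Sequences at the summits of some of the regions named below are given first, not of every leading one, because the classes described below differed in the number of Ikaros core words at the summit. Each line holds 150 bases of the plus strand of GRCm38 around the summit of the strongest peak of the region, and capitals mark the Ikaros core word GGAA with its complement TTCC on the other strand, and the core word GGGA with its complement TCCC. The first 3 regions lost rank in the 30min lists, at chr9:83634710-83634859, chr11:61005409-61005558 and chr14:47027881-47028030, and held 6, 7 and 9 words.
Sh3bgrl2 intron: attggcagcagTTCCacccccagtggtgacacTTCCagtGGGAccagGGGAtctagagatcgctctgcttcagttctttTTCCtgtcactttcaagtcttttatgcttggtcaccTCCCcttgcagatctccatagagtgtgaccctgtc
Kcnj12 intergenic: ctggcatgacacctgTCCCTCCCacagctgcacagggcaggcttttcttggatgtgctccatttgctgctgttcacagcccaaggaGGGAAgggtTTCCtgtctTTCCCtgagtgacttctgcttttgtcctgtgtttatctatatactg
Samd4 intron: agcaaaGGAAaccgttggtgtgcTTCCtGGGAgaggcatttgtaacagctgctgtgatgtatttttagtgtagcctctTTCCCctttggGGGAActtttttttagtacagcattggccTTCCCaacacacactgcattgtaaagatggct
The next 3 regions gained rank, at chr9:75477336-75477485, chr13:58552104-58552253 and chr16:24143297-24143446, and held 2, 4 and 3 words.
Leo1 neighbour: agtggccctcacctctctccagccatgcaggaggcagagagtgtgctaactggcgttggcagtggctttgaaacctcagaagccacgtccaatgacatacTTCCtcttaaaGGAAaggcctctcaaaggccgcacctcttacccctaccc
Slc28a3 intron: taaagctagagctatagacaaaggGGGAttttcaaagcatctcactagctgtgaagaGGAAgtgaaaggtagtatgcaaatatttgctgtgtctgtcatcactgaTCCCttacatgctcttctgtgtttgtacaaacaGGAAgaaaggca
Bcl6 neighbour: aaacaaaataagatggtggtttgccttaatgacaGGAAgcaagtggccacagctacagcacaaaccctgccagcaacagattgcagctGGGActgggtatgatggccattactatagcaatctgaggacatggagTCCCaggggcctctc
The next 2 were lost, at chr19:41672903-41673052 and chr3:134369249-134369398, with 6 and 7 words, among them GGGAGGAA in the Slit1 intron.
Slit1 intron: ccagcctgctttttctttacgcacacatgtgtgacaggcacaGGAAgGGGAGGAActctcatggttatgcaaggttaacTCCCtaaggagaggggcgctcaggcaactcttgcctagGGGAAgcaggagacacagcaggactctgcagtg
Cxxc4 intergenic: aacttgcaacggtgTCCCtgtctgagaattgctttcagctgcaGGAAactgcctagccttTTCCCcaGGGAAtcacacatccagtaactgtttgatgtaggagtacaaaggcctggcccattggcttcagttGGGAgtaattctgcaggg
The last 2 were gained, at chr15:85408799-85408948 and chr9:15511085-15511234, with 0 and 2 words.
Atxn10 intron: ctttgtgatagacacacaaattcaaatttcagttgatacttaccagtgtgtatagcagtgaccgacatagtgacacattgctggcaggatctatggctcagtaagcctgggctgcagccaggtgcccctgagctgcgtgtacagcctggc
Smco4 intron: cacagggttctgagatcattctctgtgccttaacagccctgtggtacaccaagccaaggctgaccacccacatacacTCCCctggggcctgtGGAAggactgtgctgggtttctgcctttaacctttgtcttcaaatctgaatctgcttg

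The 0h lists held 93936 and 85903 peaks and the 30min lists 99888 and 87731. How many fragments covered the summit of each peak, and its local background, were recovered from the deposited fold and p-value. The median peak had 14 and 11 fragments at its summit in the 0h libraries and 13 and 12 in the 30min libraries, over a background of 0.389, 0.260, 0.405 and 0.305 fragments per base. The second 0h library was therefore the shallowest and the first 30min library the deepest. Of the pre-B marker genes, Pax5, Ebf1 and Igll1 had a peak within 1 kb of a start site in all 4 lists, and Rag1 had it in all except that of 30min replicate 1. In the order 0h replicate 1, 0h replicate 2, 30min replicate 1 and 30min replicate 2, 2, 1, 2 and 2 of 7 T-cell markers, 1, 1, 0 and 0 of 6 myeloid markers and 1, 0, 2 and 2 of 5 erythroid markers had such a peak. Cd3e, Cd4 and Cd8a, Csf1r and Mpo, and Gata1 had none in any list.

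The 7652 lost regions were 10.9% of the 70089 regions with a peak in both 0h lists. The regions are ordered by the lower of their 2 percentiles. The first lay in an intron of Slit1, which encodes a secreted guidance ligand, at chr19:41672856-41673103. It held 50 and 34 fragments at 0h and ranked at percentiles 96.7 and 94.2 of its lists, with no peak called in either 30min library or in any library of 1h and 2h. The region near Cxxc4, an inhibitor of Wnt signalling, held 35 and 34 fragments at 0h. The intron of Map3k5, a stress-activated kinase, held 37 and 31. The region near Zbtb10, a zinc-finger transcription factor, held 42 and 31 fragments and also 12 core words in 200 bp. The others of the 8 highest ranked were nearest to Cbln2, a synapse organiser, with 49 and 40 fragments, to Ttc34 with 38 and 26, to the trace amine receptor gene Taar8a with 35 and 26, and to Ankmy1 with 34 and 27. All 8 ranked at or above percentile 88.6 in both 0h lists, and all lay in introns or between genes. These values chose the regions, so they are given as a description without a test.

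The 7584 gained regions were 10.4% of the 73085 regions with a peak in both 30min lists. By the same order the first lay in an intron of Atxn10 at chr15:85408834-85408969, with 31 and 28 fragments at 30min, at percentiles 82.0 and 81.5 of its lists. The later libraries, which the choice did not use, gave 47 and 51 fragments after 1h and 57 and 47 after 2h, all above the 30min level. The intron of Smco4 held 35 and 22 fragments at 30min, the intron of Cenpl, a centromere protein, 20 and 19, and the region near Cldn11, a tight-junction protein, 29 and 20. The intron of Lrrc8c, a subunit of volume-regulated anion channels, held 23 and 23. The remaining 3 of the 8 highest ranked, nearest to Gm21818, Rsph3a and Ppp2r2b, held between 15 and 19 fragments. Not all of the 8 rose further as the Atxn10 region did. After 2h the Smco4 region held 19 and 18 fragments and the Ppp2r2b region 10 and 12, below their 30min values of 35 and 22 and of 17 and 15.

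Most members of both classes were weak. The median summit held 8 fragments in lost regions at 0h and 8 in gained regions at 30min, with quartiles of 6 and 12 and of 6 and 11, and the median percentile within the lists was 33.1 and 27.2. Among regions with over 20 fragments in both lists that had them, 298 of 21003 (1.42%) were lost and 102 of 23092 (0.442%) were gained. Among regions with up to 10 fragments in the weaker of both lists, 5841 of 29156 were lost and 6010 of 27631 (21.8%) gained. Lost regions therefore outnumbered gained ones in the strong class and not in the weak class. Close to the calling threshold, 6735 regions had a peak in both 0h lists and in 1 of the 30min lists. Their 0h peaks held a median of 9 fragments and their 30min peak 8. The 9799 regions with both 30min lists and 1 of the 0h lists held 9 and 8. Regions just outside the classes were thus about as strong as those inside.

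In the kept regions, strength was compared by rank. The fold of the highest peak of a region was ranked within each list, expressed as a percentile among the 55702 regions and converted to a normal score, and limma compared 2 libraries with 2. No region passed an adjusted p of 0.01. At an unadjusted p under 0.05 limma gave 6155 lower and 5211 higher regions. At an adjusted p under 0.05, 808 regions (1.45%) were lower and 145 (0.260%) higher at 30min (limma, Benjamini-Hochberg), and 84.8% of these calls were lower. Without a threshold on p the balance was the other way, with both 30min libraries below both 0h libraries in 13807 regions (24.8%) and above them in 15099 (27.1%). With 0h replicate 1, 0h replicate 2, 30min replicate 1 or 30min replicate 2 left out, limma called 0 regions at 0.05, and 4482 to 5189 lower and 3538 to 4889 higher ones had an unadjusted p under 0.05. The calls therefore need all 4 libraries. On recovered fragments over background, centred on the median of each library, limma called 2855 (5.13%) lower and 1137 (2.04%) higher at 0.05, of which 71.5% were lower. These fragment-based calls include 795 of the 808 and 135 of the 145. They fell to 0 in both directions without either 0h library, where 5292 and 5321 lower and 5854 and 4683 higher regions had an unadjusted p under 0.05, and were 2233 and 2325 lower and 729 and 772 higher without either 30min library. The lower share was 68.7% with all 8 libraries in the model, 69.9% with a variance trend, 76.9% with stricter peaks and 63.5% on fragments with a variance trend. Across regions, normal scores correlated at 0.848 and 0.858 between replicates and at 0.709 to 0.735 between times, as a description. The labels do not say whether replicates are separate cultures, so the p-values measure the spread between these libraries, which may be technical.

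**Figure D1:**
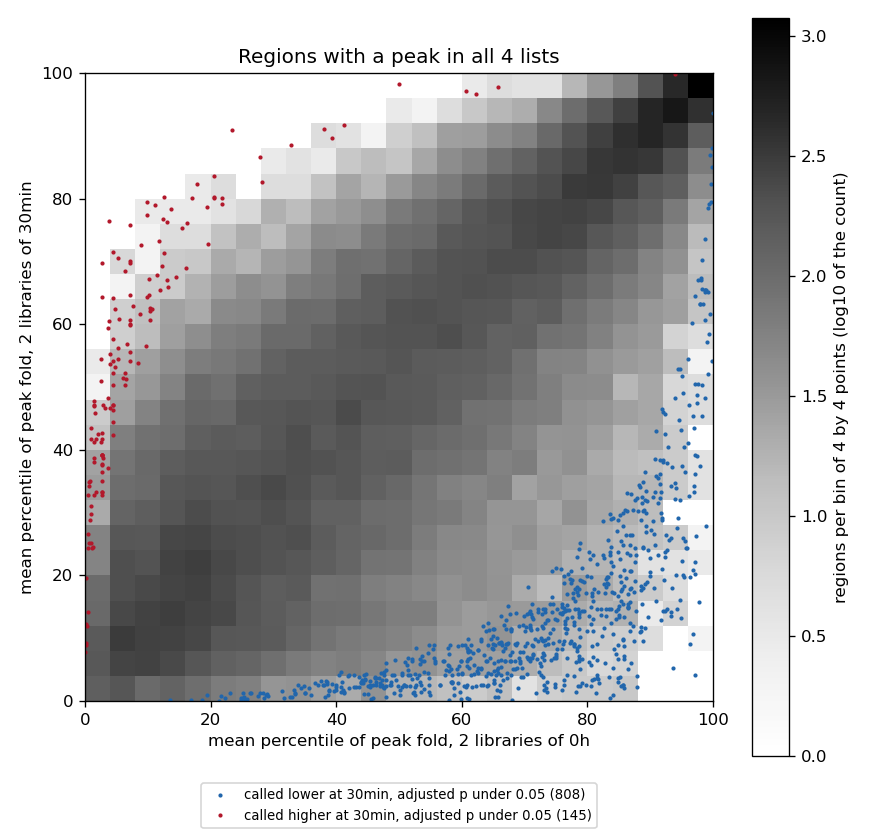
Mean percentile of peak fold at 0h (x axis) and at 30min (y axis) of the 55702 kept regions, as the log10 of the number of regions per bin in grey, with the regions past an adjusted p of 0.05 as points. The 808 lower regions form a band below the diagonal, from low 0h percentiles along the bottom up to the highest ones. The 145 higher regions form a band above the diagonal.

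A wider class was used to describe size. Regions whose times lay at least 20 percentile points apart, lowest library of the higher time against highest library of the other, numbered 3525 lower (6.33%) and 2187 higher (3.93%) at 30min and are called shifted. They include 784 of the 808 and 132 of the 145 called regions. The mean percentile of the lower shifted regions was 67.3 and 67.6 at 0h and 24.3 and 23.9 at 30min, and that of the higher ones 25.8 and 24.4 at 0h and 61.4 and 61.7 at 30min. The other 49990 kept regions are called unshifted.

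Regions were ordered by the gap between the lowest library of one time and the highest of the other, so times that do not overlap follow from the choice. The largest fall by this gap was in an intron of Sh3bgrl2, which encodes a small SH3-binding protein, at chr9:83634675-83634938. Its percentile was 99.1 and 95.2 at 0h and 4.94 and 3.39 at 30min, and its summit held 54, 34, 6 and 5 fragments in the same order. The 30min libraries lay at the bottom of the scale, and the score difference was -3.75 ± 0.32 (SE, n = 2 against 2, limma adjusted p = 0.0349). The intron of Samd4, an RNA-binding translational repressor, held 69 and 61 fragments at 0h and 8 and 8 at 30min (score difference -3.18 ± 0.29, limma adjusted p = 0.0349). The region 17080 bp from a start site of Kcnj12, a potassium channel gene, held 53 and 38 and then 6 and 6 fragments. The intron of Akap13, an anchoring protein and activator of RhoA, held 51 and 35 and then 5 and 5. The highest 30min percentile among these 4 regions was 11.8, in Samd4.

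The other regions among the 8 with the largest fall lay near the polyamine transporter gene Atp13a3 (46 and 36 fragments, then 7 and 6), the semaphorin receptor gene Plxna2 (43 and 26, then 5 and 5), the protein phosphatase 2A subunit gene Ppp2r5a (76 and 48, then 10 and 9) and in an intron of Carmil1, a regulator of actin capping (40 and 34, then 5 and 5). Each had a limma adjusted p of 0.0349, which is also the smallest adjusted p over all regions. All 8 were intronic or intergenic, and 5 to 11 core words stood in the 200 bp around their summits. In the lists of 1h and 2h these regions had no peak or at most 13 fragments, so none returned to its 0h level.

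The largest rise by the same gap was in an untranslated exon of Zfand5, which encodes a ubiquitin-binding zinc-finger protein, at chr19:21286523-21286717. Its percentile was 6.16 and 8.17 at 0h and 76.7 and 74.9 at 30min, and its summit held 6, 5, 26 and 22 fragments (score difference 2.17 ± 0.26, limma adjusted p = 0.0349). The intron of Slc28a3, a nucleoside transporter, went from 5 and 4 to 22 and 20 fragments. A region 154520 bp from a start site of Bcl6, a transcriptional repressor of B cells, went from 8 and 5 to 28 and 22 (score difference 2.02 ± 0.28, limma adjusted p = 0.0393). A region 35875 bp from a start site of Leo1, a subunit of the PAF1 elongation complex, went from 6 and 4 to 22 and 18. In all 4 the 0h libraries held at most 8 fragments.

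A further 4 of the 8 with the largest rise lay in introns of Irgc1 (17 and 13, then 44 and 37 fragments), Adgrv1 (7 and 3, then 39 and 25, with the largest score difference of the 8, 2.98 ± 0.52), the lipid kinase gene Pip4k2a (20 and 14, then 45 and 36) and Tead2, close to the B-cell tetraspanin gene Cd37 (12 and 9, then 38 and 27). Their limma adjusted p-values lay between 0.0388 and 0.0462. These 8 held 2 to 5 core words. Their later libraries stayed above the 0h level, with 19 fragments or more in each list of 1h and 2h.

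**Figure D2:**
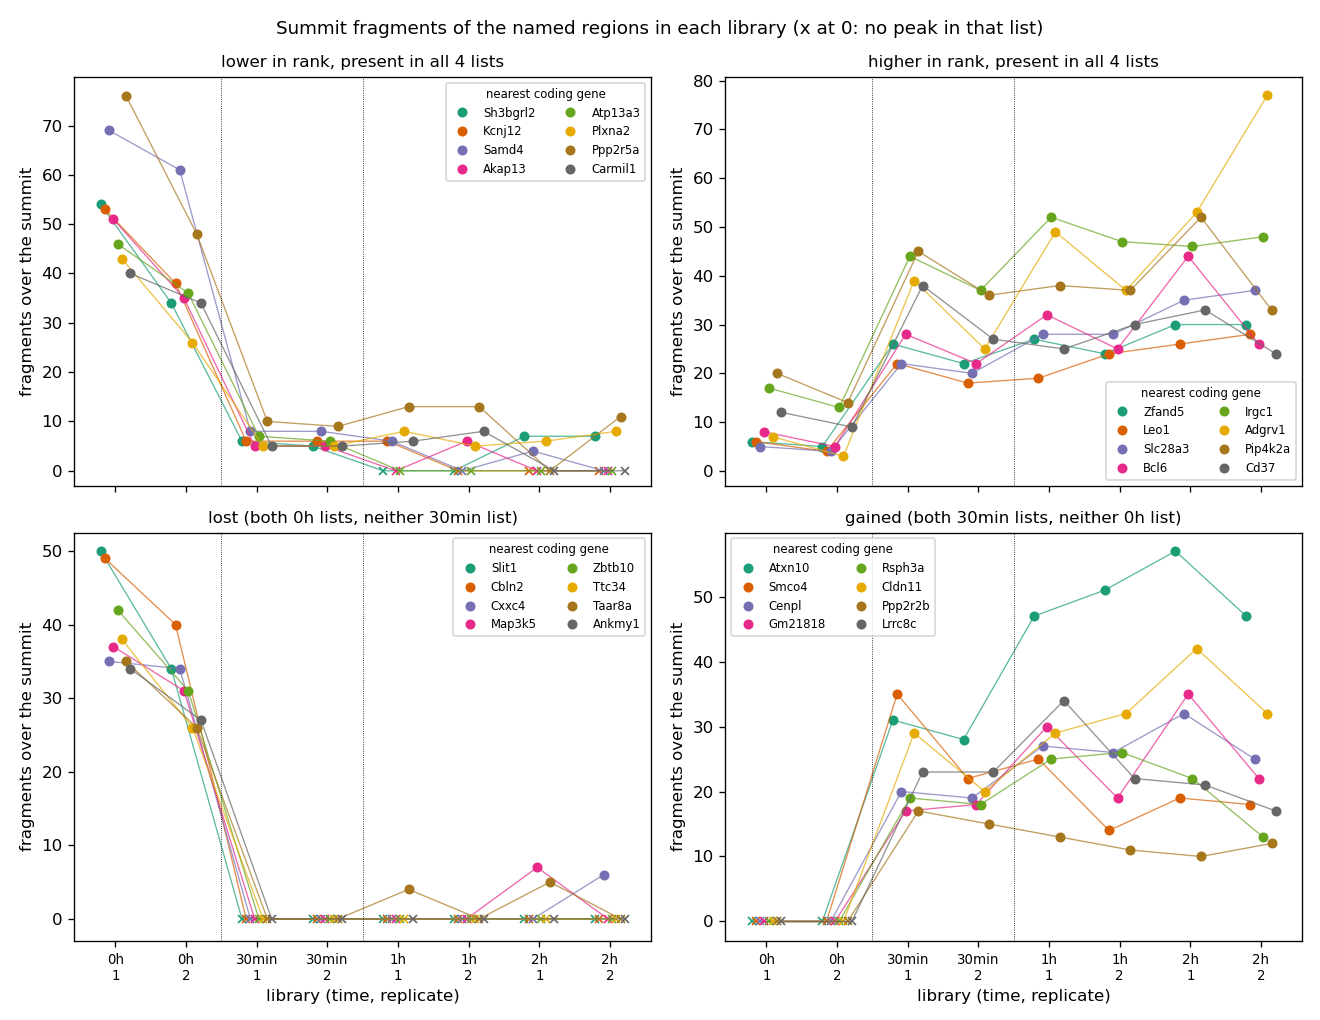
Fragments over the summit (y axis) in each of the 8 libraries (x axis) for the 8 named regions of each class, with a cross at 0 where the list has no peak. The lower and lost regions had 26 fragments or more in both 0h libraries and 10 or fewer, or no peak, at 30min, and the higher and gained regions kept 10 fragments or more in every later library.

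The density of Ikaros core words differed between the lists as a whole, a measure that needs no merged regions. Over all peaks of a list, the 200 bp around the summit held 2.417 and 2.409 words per 100 bp in the 0h libraries and 2.101 and 2.112 in those of 30min. The times did not overlap, and the replicates differed by far less than the times did. An exact permutation test of 2 against 2 libraries cannot go below p = 0.333 (two-sided), so no p-value is given. Among the 20000 peaks of the highest fold in each list the values were 2.494 and 2.500 before induction and 2.155 and 2.149 after it. In the lists of 1h and 2h the density over all peaks lay lower still, at 1.997 and 2.002 and at 1.949 and 1.946.

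Lost and lower regions held more of the words than unshifted regions, and gained and higher regions held fewer. The mean density was 3.13 ± 1.27 (SD over regions) in lost regions and 3.16 ± 1.19 in lower shifted ones, against 2.20 ± 1.17 in unshifted regions, 1.63 ± 1.02 in gained and 1.62 ± 0.967 in higher shifted ones. A word that belongs to GGGAA or TTCCC counts for both of its cores. The density of GGGAA and TTCCC alone was 0.456, 0.457, 0.287, 0.188 and 0.174 per 100 bp in the same order. At least 8 words stood at 28.2% of lost, 27.9% of lower, 9.87% of unshifted, 3.09% of gained and 2.88% of higher regions. The spread over regions was wide, so the classes overlapped. Mean GC content was 49.9% in lost, 51.6% in lower, 52.6% in unshifted, 49.1% in gained and 49.8% in higher regions, and against kept regions of the same GC content the density was 0.951 higher in lost and 0.47 lower in gained regions.

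The excess and the deficit were both local. Within 40 bp of the summit, lost and lower regions held 3.57 and 3.63 words per 100 bp, unshifted ones 2.25, and gained and higher ones 1.68 and 1.70. Beyond 300 bp the densities were 2.21, 2.27, 2.23, 2.14 and 2.18, within a narrow range. The same order held at promoters and away from them: distal lost regions held 3.10 ± 1.25 and promoter lost regions 3.35 ± 1.39, against 2.09 ± 1.12 and 2.46 ± 1.24 in unshifted and 1.59 ± 1.00 and 1.84 ± 1.09 in gained regions (SD over regions). In the 298 strong lost regions the density was 3.82 ± 1.24 and in the 102 strong gained regions 1.36 ± 0.939, against 2.35 ± 1.17 in kept regions with over 20 fragments in all 4 lists.

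**Figure D3:**
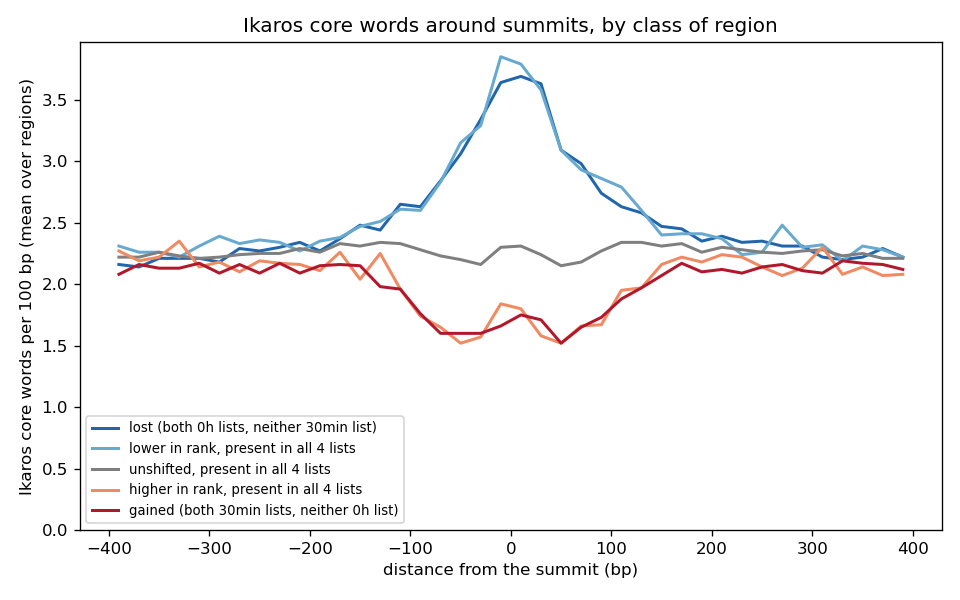
Mean number of Ikaros core words per 100 bp (y axis) by distance from the summit in bins of 20 bp (x axis), for 5 classes of region. Lost and lower regions peak above 3.5 at the summit, gained and higher regions dip to 1.52 beside it, and all classes lie near 2.2 beyond 300 bp.

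The share of regions lost grew with the number of words. Of regions in both 0h lists, 2.34% of those with 0 or 1 word around the summit were lost, then 4.60%, 9.68% and 16.0% with 2 or 3, 4 or 5 and 6 or 7 words, 1375 of 6557 with 8 or 9, and 27.5% (785 of 2853) with 10 or more. The share gained, of regions in both 30min lists, ran the other way, from 1441 of 7584 with 0 or 1 word to 3.36% with 10 or more. Among kept regions, 0.628% with 0 or 1 word and 20.2% with 10 or more were shifted lower, and 8.23% and 0.535% shifted higher. Even at 10 words or more, most regions were neither lost nor shifted.

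**Figure D4:**
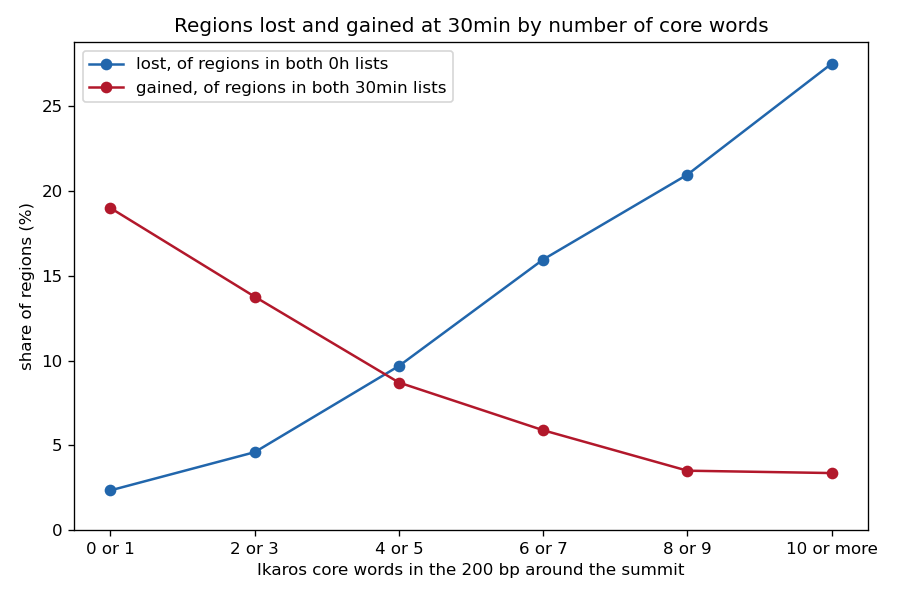
Share of regions (y axis, in percent) that were lost, of those in both 0h lists, or gained, of those in both 30min lists, by the number of Ikaros core words in the 200 bp around the summit (x axis). The share lost climbs from 2.34% to 27.5% and the share gained falls to 3.36%.

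Words of other factors were searched on both strands of the same 200 bp windows. EBF, the B-lineage factor early B-cell factor, by the word CCCNNGGGA, which holds an Ikaros core, stood at 16.0% of lost, 18% of lower, 7.65% of unshifted, 9.19% of gained and 10.7% of higher regions, and at 9.04% of all merged regions. The PU.1 word GAGGAAGT, which also holds a core, stood at 8.78%, 10.8%, 5.37%, 6.28% and 6.81% in the same order, and at 6.27% of all. The E-box CAGCTG, of helix-loop-helix factors, holds no core and stood at 20.7%, 23.9%, 16.6%, 16.8% and 20.3% (16.9% of all). The E-box CAGGTG went the other way, at 14.0%, 13.9%, 16.4%, 20% and 21.4% (16.9% of all). The Runx word TGTGGT was more frequent in all 4 moving classes, at 30.9%, 30.8%, 27.8% and 31.0% in lost, lower, gained and higher regions, than in unshifted ones at 23.0% (25.5% of all).

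Words that were more frequent in gained than in lost regions included the octamer ATGCAAAT (3.72% against 1.31%, 1.86% of all), the forkhead word TGTTTAC (3.03% against 1.54%, 2.27% of all) and the KLF word GGGTGTGG (4.29% against 2.04%, 2.75% of all). The NF-kB word GGGANTTCC, which holds 2 core words, stood at 1.45% of lost and 0.396% of gained regions (0.934% of all) and the STAT word TTCNNNGAA at 6.34% and 4.02% (5.12% of all). The AP-1 word TGANTCA differed little, at 7.93% and 8.82% (7.68% of all). So did the sterol element word TCACNCCAC, at 0.980% and 1.15% (0.908% of all). The ETS word CCGGAA, which holds a core, stood at 4.34% and 2.40% (5.42% of all), the SP word GGGCGG at 5.48% and 8.41% (11.7% of all) and the CRE word TGACGTCA at 0.248% and 0.303% (0.522% of all), all below their share of 9.06%, 18.5% and 0.928% in unshifted regions. The word of CTCF, the insulator protein, stood at 8.81% of unshifted regions but at 1.16% of lost and 2.52% of gained ones (5.14% of all). Of regions in both 0h lists, 1.77% of those with a CTCF word and 11.6% of those without were lost. Strength was not matched in this contrast, and strong regions were seldom lost. Among kept regions with a CTCF word 1.46% were shifted lower and 2.76% higher, against 6.77% and 4.03% of those without. A match of letters is not a bound site, and base composition differs between promoters and distal regions.

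Lost and gained regions were mostly distal. A start site lay within 1 kb of 11.9% of lost and 15.2% of gained regions, against 28.2% of kept regions and 27688 of all 138154. Kept regions were stronger, with a median of 19 fragments. Among the merged regions outside the lost, gained and kept classes 14.7% were promoters, and with over 20 fragments 17.4% of lost and 28.4% of gained regions were. Introns held 46.9% of lost and 47.4% of gained regions and intergenic DNA 37.5% and 33.9%. Coding exons held 1.20% and 1.25%, untranslated exons 1.58% and 1.56% and non-coding exons 0.902% and 0.712%. The median distance to the nearest start site of a coding gene was 25538 bp for lost, 18815 bp for gained and 13841 bp for kept regions. Read from the regions present before, 5.18% of promoter regions (911 of 17587) and 12.8% of distal regions (6741 of 52502) were lost, and 6.16% and 11.8% of those present after were gained. The share lost went from 4.44% within 1 kb of a coding start site to 11.4% at 1 to 10 kb, 11.9% at 10 to 50 kb, 13.3% at 50 to 100 kb and 15.8% beyond 100 kb, while the share gained stayed between 11.1% and 12.3% beyond 1 kb. Among kept regions, 3.96% at promoters and 7.26% elsewhere were shifted lower, and 2.17% and 4.62% higher.

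Lost and gained regions were spread over many genes. Of 18270 coding genes that were nearest to a merged region within 100 kb, 4483 were nearest to a lost region, 4775 to a gained one and 1790 to both. Limch1, which encodes an actin-binding protein, had the most lost regions, 10 of its 29 regions in both 0h lists, with 1 gained and with 6 of its 15 kept regions shifted lower. Flrt1, an adhesion protein gene, lost 7 of 13 and gained 0. The septin gene Sept9 lost 7 of 40, and Tiam1, an activator of Rac, lost 7 of 25. Foxp1, a forkhead transcription factor of B-cell development, lost 7 of 40 and gained 10 of its 46 regions in both 30min lists, so both directions met at the same gene.

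Pde4d, which encodes a phosphodiesterase of cyclic AMP, had the most gained regions, 13 of its 69 in both 30min lists, and lost 5 of 61 in both 0h lists. Tarbp1 gained 7 of 14 and lost 1 of 9. Fam120a gained 6 of 15 and lost 0 of 7, and Rcan1, an inhibitor of calcineurin, gained 6 of 11 and lost 0 of 4. Foxp1 also stands among the 5 genes with the most gained regions. A gene with many regions can take many changes, so the count of regions at each gene is given beside it.

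Regions within 20 kb of start sites were then counted for 8 gene lists, beside the 10.9% lost, 10.4% gained, 6.33% lower and 3.93% higher over all regions. Over all kept regions limma called 1.45% lower and 0.260% higher on ranks, and 5.13% and 2.04% on fragments. The counts near each list are a description beside these shares. The shares over all regions take in every distance, while the lists hold only regions near start sites. Within 1 kb of a coding start site 4.44% were lost and 5.54% gained, and beyond 100 kb 15.8% and 12.1%. The comparison is therefore not matched for distance, and a list can differ from all regions through location. The pre-B cell receptor (pre-BCR) and its signalling proteins drive the division of pre-B cells and later their exit from it. Near its 16 genes, 8 of 106 regions (7.55%) were lost, 8 of 110 (7.27%) gained, and 12 of 91 kept regions (13.2%) were shifted lower and 3 (3.30%) higher, with 5 called lower and 1 higher on ranks at an adjusted p under 0.05 (limma). On fragments 13 lower and 2 higher were called, and 17 lower and 10 higher had an unadjusted rank p under 0.05. The median score difference of its kept regions was 0.0685, beside 0.0476 over all kept regions. At Cd79b, the signalling chain Ig-beta, a region in an untranslated exon of the neighbouring Scn4a held 58 and 42 fragments at 0h and 14 and 13 at 30min (score difference -2.20 ± 0.27, limma adjusted p = 0.0349), with no peak in either 2h library. At Pik3cd, the catalytic subunit of the PI3 kinase of leukocytes, an intronic region held 71 and 60 and then 22 and 19 (-1.92 ± 0.28, limma adjusted p = 0.0394). Pik3cd lost 0 of 14 regions and gained 3, among them a promoter region with 29 and 22 fragments at 30min. The region 95 bp from the start site of Vpreb2, a surrogate light chain gene, held 35 and 21 and then 9 and 8 (-1.58 ± 0.27, limma adjusted p = 0.0456). Vpreb2 has a near-identical paralogue, Vpreb1, so fragments could have been placed at either.

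Further pre-BCR genes had lost or gained regions. A region near Igll1 and Vpreb1, which encode the surrogate light chain, was lost with 12 and 17 fragments at 0h, an intron of the kinase gene Fyn with 10 and 7, and the promoter of Btk, a kinase downstream of the receptor, with 13 and 11. By fold, the region near Igll1 and Vpreb1 ranked at percentiles 0.140 and 28.9 of the 0h lists. Its peak in 0h replicate 1 was thus at the floor of that list. The Btk promoter ranked at 7.44 and 17.7. The promoter of Vpreb3 gained a peak with 20 and 19 fragments at 30min, which held between 25 and 33 in the later libraries. Of its regions the gene for the kinase Syk lost 1 of 10 and the gene for the adaptor Blnk 1 of 5. The 1 region of the list called higher on ranks also lay near Syk.

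The interleukin-7 receptor acts through JAK kinases and STAT5 to keep pre-B cells alive and dividing, and SOCS proteins and CISH feed back on it. Near its 14 genes, 12 of 85 regions (14.1%) were lost and 5 of 82 (6.10%) gained, and 8 of 69 kept regions (11.6%) were shifted lower and 3 (4.35%) higher, with 5 called lower and 1 higher on ranks at 0.05 (limma). On fragments 8 lower and 3 higher were called, and 12 lower and 6 higher had an unadjusted rank p under 0.05. The median score difference was 0.00135. An intronic region of Socs2 held 60 and 44 fragments at 0h and 14 and 16 at 30min (-2.20 ± 0.34, limma adjusted p = 0.0409). A region 4886 bp from a start site of Pim1, a survival kinase, held 62 and 37 and then 13 and 12 (-1.98 ± 0.29, limma adjusted p = 0.0394). A region near Socs1 held 61 and 47 and then 20 and 16 (-1.64 ± 0.26, limma adjusted p = 0.0422). These 3 regions were picked as the largest gaps of the list, so they do not stand for the other regions of these genes. Regions shifted higher lay near Socs1 itself, Mcl1, Stat5a and Stat5b, and the 1 called higher lay near Jak1.

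Among lost regions of that pathway, the promoter region of Il2rg, the common receptor chain, held 18 and 16 fragments at 0h and an intron of Stat5a 17 and 15. The promoter of Bcl2, an inhibitor of cell death, held 8 and 11 and that of Socs2 14 and 14. By fold, the Bcl2 promoter ranked at percentiles 0.753 and 30.9 of the 0h lists and the Socs2 promoter at 0.921 and 25.5. Both were thus near the floor in 0h replicate 1, and the Socs2 promoter had a peak of 13 fragments in 1h replicate 1. At Il7r itself 0 of 3 regions were lost, and an intron gained a peak of 25 and 16 fragments that held between 16 and 20 in the later lists. Stat5b, which shares its neighbourhood with Stat5a, lost 4 of 11 regions.

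The list of 20 genes that the study names as repressed was chosen by the study on cells of this kind, so it is not independent evidence of a direction. Near them, 10 of 118 regions (8.47%) were lost, 5 of 118 (4.24%) gained, and 8 of 95 kept regions (8.42%) were shifted lower and 2 (2.11%) higher, with 2 called lower and 1 higher on ranks (limma). On fragments 11 lower and 1 higher were called, 15 lower and 11 higher had an unadjusted rank p under 0.05, and the median score difference was 0.0169. A promoter region of Plekho2, a PH-domain protein gene, held 65 and 45 fragments at 0h and 17 and 17 at 30min (-2.30 ± 0.28, limma adjusted p = 0.0349), with 10 core words. An intron of Serpinf1 held 63 and 50 and then 13 and 13 (-1.62 ± 0.29, limma adjusted p = 0.0477). An intron of Endod1 went the other way, from 25 and 21 to 53 and 42 (2.40 ± 0.31, limma adjusted p = 0.0370), with 2 core words. Itga5, the fibronectin receptor chain, lost 3 of 10 regions, the strongest with 36 and 22 fragments. Lrrfip1 lost 2 of 9 and gained 1. Myc, Ccnd1, Ccnd2 and Ccnb1 lost 0 of 6, 5, 6 and 5.

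Adhesion and migration genes had the largest share of lost regions among the lists. Near 19 of them 15 of 95 regions (15.8%) were lost and 9 of 95 (9.47%) gained, and 5 of 72 kept regions (6.94%) were shifted lower and 3 (4.17%) higher. By limma 0 were called at 0.05 in either direction on ranks, where 8 lower and 9 higher ones had an unadjusted p under 0.05, and 6 lower and 1 higher on fragments; the median score difference was 0.151. Lost regions lay near Cxcr4, the chemokine receptor that holds B-cell precursors in bone marrow, with 23 and 17 fragments at 0h, in an intron of the hyaluronan receptor gene Cd44 with 20 and 12, near Selplg, a selectin ligand gene, with 21 and 15, and at the promoter of Cd24a with 23 and 18. Near Cxcr4, Selplg and Cd24a 1 region each was also gained, with 11 and 6, 25 and 18, and 10 and 12 fragments at 30min. Cd44 gained 0. The integrin gene Itgb7 gained a promoter peak of 13 and 10 fragments while the promoter region of its neighbour Rarg was lost. The 3 kept regions with the largest gaps lay near S1pr1 (10 and 4 fragments, then 20 and 25, limma adjusted p = 0.0830), in an intron of Itga5 (24 and 24, then 12 and 8, adjusted p = 0.0632) and in an intron of Emb (40 and 25, then 53 and 59, adjusted p = 0.0843). None of the 3 passed the threshold.

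Genes of B-lineage transcription factors and of the cell cycle had smaller shares of lost regions than all regions together, with no test of that difference. This was not particular to them. The immediate early (6.08%), pre-BCR (7.55%), study-named (8.47%) and sterol synthesis (10.7%) lists also lay below the 10.9% of all regions. Near 22 transcription factor genes 9 of 140 regions (6.43%) were lost and 18 of 150 gained, and 9 of 115 kept regions (7.83%) were shifted lower and 2 (1.74%) higher. By limma 0 were called at 0.05 on ranks, where 16 lower and 11 higher ones had an unadjusted p under 0.05, and 4 lower and 2 higher on fragments; the median score difference was 0.0400. Foxo1, which drives the recombination genes, gained 4 regions and lost 0 of 4, and Bach2 gained 2. The Pax5 gene lost a region of 47 and 31 fragments, at percentiles 24.7 and 25.9 of the 0h lists. That region lay inside the gene and counts as a promoter, within 1 kb of a start site but 7968 bp from a coding one. An intergenic region of 25 and 29 fragments, 2714 bp from a start site of Pax5, was gained, at percentiles 4.48 and 18.3 of the 30min lists. Ikzf1 itself lost an intronic region of 35 and 25 fragments, 2674 bp from a start site, with 0 gained, and its other kept regions were unshifted. The largest gaps in kept regions lay near Tcf3 (38 and 20, then 15 and 6, limma adjusted p = 0.0936), Gfi1b (42 and 36, then 26 and 18, adjusted p = 0.0733) and Irf8 (66 and 60, then 27 and 19, adjusted p = 0.0637), none past the threshold.

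Near 22 cell cycle genes 4 of 120 regions (3.33%) were lost and 11 of 136 (8.09%) gained, and 6 of 106 kept regions (5.66%) were shifted lower and 2 (1.89%) higher, with 0 called lower and 1 higher on ranks (limma), the latter near Cdkn1a. At an unadjusted p under 0.05 there were 11 lower and 8 higher, and on fragments 4 lower and 2 higher were called; the median score difference was 0.0193. Ccnd3, the D-type cyclin on which pre-B cell division depends, lost 2 of 16 regions and gained 2. The stronger lost one was an intronic region with 32 and 23 fragments at 0h. The intronic kept region of Ccnd3 with the largest gap held 80 and 57 and then 40 and 30 (limma adjusted p = 0.0823). The other 2 largest gaps lay in Mcm5 (35 and 27, then 10 and 12, adjusted p = 0.0520) and near Ccne1 (33 and 22, then 17 and 16, adjusted p = 0.0637). An untranslated exon of Cdkn1b, a cyclin-dependent kinase inhibitor, lost a region of 27 and 15 fragments. Near Cdkn1b 2 regions were gained, among them 1 with 21 and 16 fragments at 30min. E2f1 gained 3 regions and lost 0 of 4.

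Immediate early genes, which signalling switches on within minutes, had 9 of 148 regions (6.08%) lost and 16 of 160 (10.0%) gained near 20 genes. Of 129 kept regions 11 (8.53%) were shifted lower and 6 (4.65%) higher, with 3 called lower and 0 higher on ranks (limma). At an unadjusted p under 0.05 there were 19 lower and 11 higher, on fragments 8 lower and 2 higher were called, and the median score difference was 0.0186. A region 16027 bp from a start site of Fos held 50 and 36 fragments at 0h and 14 and 10 at 30min (-2.47 ± 0.28, limma adjusted p = 0.0349), and a region near Dusp2, a MAP kinase phosphatase, held 92 and 67 and then 21 and 14 (-2.21 ± 0.30, limma adjusted p = 0.0388). Both had 7 core words and no peak in any later list. A region near Egr1 went from 35 and 25 to 65 and 48 (limma adjusted p = 0.0982), which did not pass. An intron next to Jun gained a peak of 21 and 24 fragments.

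Near 18 sterol synthesis genes 8 of 75 regions (10.7%) were lost and 7 of 78 (8.97%) gained, close to the background, and 5 of 63 kept regions (7.94%) were shifted lower and 4 (6.35%) higher, with 0 called lower and 1 higher on ranks (limma), the latter near Insig1, a regulator of sterol synthesis. At an unadjusted p under 0.05 there were 9 lower and 4 higher, and on fragments 2 lower and 1 higher were called; the median score difference was 0.0838. Fdps, a farnesyl diphosphate synthase gene, lost 3 of 10 regions, the strongest with 29 and 21 fragments. The largest gaps were in the promoter of Wdr37 beside Idi1, an isomerase of the pathway (16 and 10, then 26 and 21, limma adjusted p = 0.0705) in the promoter that Mmab shares with the mevalonate kinase gene Mvk (14 and 12, then 27 and 21, adjusted p = 0.0702) and in a region near Sc5d (41 and 33, then 20 and 13, adjusted p = 0.103). None of the 3 passed. Regions of neighbouring genes are counted with each list, and the nearest gene need not be the regulated one.

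The lists of 1h and 2h took no part in the choice of regions. A peak stood in 12.7% and 9.93% of lost regions after 1h and in 10.4% and 9.11% after 2h, and 5793 of them (75.7%) had none in any of the 4 later lists. For gained regions these shares were 77.6% and 70.1%, then 77.7% and 73.6%, and 3869 (51.0%) had it in all 4. Merged regions outside the lost, gained and kept classes stood at 35.0% to 40.8%. Among the strong members, with over 20 fragments, 6.71% to 10.4% of lost regions and 92.2% to 93.1% of gained regions had a peak in each later list. Most regions of both classes were thus in the same state in the 2h lists as in the 30min lists.

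Shifted regions continued in the same direction or stayed. Of the lower shifted regions, 81.3% and 76.0% had a peak after 1h and 71.7% and 68.5% after 2h, against 93.5% to 96.0% of unshifted ones, and of the higher shifted regions 99.0% to 99.6%. Of the 808 called lower, the later lists held a peak in 67.8%, 62.9%, 54.3% and 51.2%. Among the 1843 lower shifted regions with a peak in all 8 lists, the mean percentile was 69.2 and 69.7 before induction, 25.8 and 25.4 after 30min, 21.2 and 21 after 1h, and 18.2 and 18.5 after 2h. Among 2140 higher ones it was 23.2 and 21.9, then 56.2 and 56.5, 57.1 and 56.2, and 57.9 and 59.1. The 0h and 30min values chose these regions and are given for scale. In the later libraries the lower regions lay below their 30min level in each list and the higher ones within 3 percentile points of it.

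**Figure D5:**
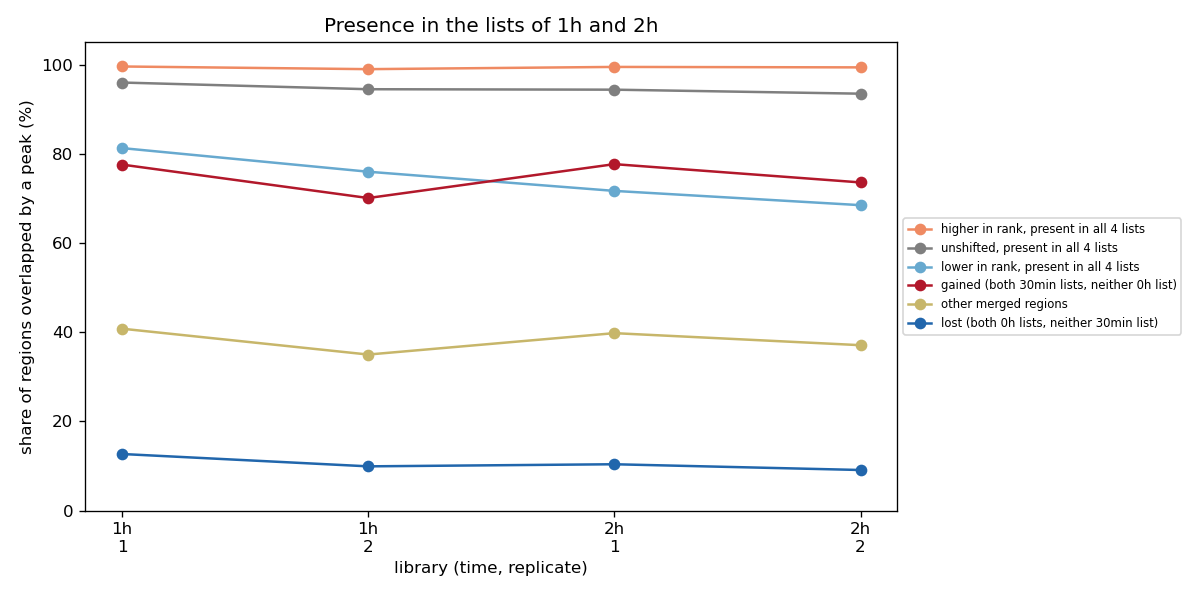
Share of regions (y axis, in percent) overlapped by a peak in each list of 1h and 2h (x axis), by class. Lost regions lie between 9.11% and 12.7%, gained ones between 70.1% and 77.7%, and lower shifted ones fall below unshifted ones in all 4 lists.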

How the data were processed

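ATAC-seq was performed on B3 cells with Ikaros-ERt2, 2 libraries per time. Per the labels and methods, the authors demultiplexed with bcl2fastq 2.20.0, aligned with bwa 0.7.17 through nf-core/atacseq, shifted fragment ends for the Tn5 offset and kept nucleosome-free fragments with deepTools 2.3.5, and called peaks with MACS2 2.1.2 on each library alone in paired-end mode without a control. Both the shift and the paired-end mode fit the assay. A human build is written in the methods, whereas the labels name GRCm38, whose limits hold every peak on all 21 chromosomes, and GRCm38 is used here. The deposited lists give for each peak a ratio, the fold of fragments piled up at the summit over local background, its −log10 p-value and −log10 q-value, and the summit position. These values of the authors belong to each list alone and are not scaled between libraries. The caller's q-value threshold of 0.05 bounds every list.

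From the fold and the −log10 p-value the whole number of fragments at each summit was recovered under the caller's Poisson model. It fitted 100% of peaks within 0.001 and was checked on simulated peaks. The most frequent background of weak peaks stands for depth. With a median of 11 to 14 fragments at a summit, counting error is large for a single peak, and a missing peak can be a call just missed. Overlapping peaks (1 bp) of the 4 lists were merged with Python 3.11.15 and pandas 2.3.3. Kept regions were ranked by fold within each list, turned into normal scores and tested with limma 3.58.1 (R 4.3.3, lmFit and eBayes, tested on simulated data) with Benjamini-Hochberg adjustment over all kept regions. Ranks are relative, so a region can rise because others fall. Start sites, exons and introns came from GENCODE M21 (basic) and sequence from the GRCm38 reference. A promoter region lay within 1 kb of a start site. Core words and motifs were searched in the 200 bp around the highest summit.

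Regions were named by a rule: the 8 kept regions with the largest percentile gap between times in each direction, the 8 lost and 8 gained with the highest value of their lower percentile, the 5 genes nearest to the most lost and most gained regions, and the 3 kept regions with the largest gap in each of 8 gene lists. Lost and gained regions near listed genes are those with the highest lower percentile at each gene, picked for the text after their values were seen. The full count over the pre-B markers is not reported here. The members, the gene lists and the motifs were chosen with earlier results of these data known. Alternatives comprised other peak windows, thresholds, list lengths, ranking columns, priors, a replicate block and each library left out.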

Additional observations from a re-analysis of the deposited data

How the results depend on the processing

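With 200 bp windows around summits, after keeping peaks with a −log10 q of 5 or more, or with lists of equal length, 5857 to 8003 regions were lost and 6616 to 7844, or 5910 at the stricter q, were gained. With over 20 fragments in both lists 298 were lost and 102 gained. Without each library in turn, 9831 to 18648 were lost and 10612 to 22899 gained, as fewer lists had to agree. By limma at an adjusted p under 0.01, 0 regions were lower and 0 higher; 808 and 145 passed 0.05. At 0.01, median-centred fragments gave 432 lower and 10 higher, and eBayes with trend and robust 1016 and 160, while the other fits on ranks, leave-one-out included, gave 0 and 0. Fits added after the data were seen gave, for fragments with trend and robust, 3566 and 1190 at 0.01 and 5329 and 3063 at 0.05, and for fragments without 30min replicate 1 or 2, respectively, 904 or 847 lower and 84 or 67 higher at 0.01 and 2325 or 2233 and 772 or 729 at 0.05, and without either 0h library 0 and 0. At 0.05, a family of settings added after the data were seen, fragments gave 2855 and 1137, trend and robust 2608 and 1125, all 8 libraries in the model 690 and 314, stricter peaks 1149 and 345, ranks among all peaks of a list 0 and 0 (5078 and 5693 at an unadjusted p under 0.05), and each library left out 0 to 0. The cause was not tested. Lower calls were 63.5% to 88.8% of all calls at 0.05 over the fits with all 4 libraries that made any.

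The replicate block gave 0 lower and 0 higher at 0.01 and 757 and 119 at 0.05. The libraries share a number and no stated pairing, and the deviations of the libraries numbered 1 correlated at 0.0358. For the 40 named kept regions, 310 values under alternatives kept their side of 0.01, 50 newly passed it and 0 reversed. None of the 40 passed 0.01 in the main fit, so the 310 stayed short of it. The regions were chosen by times that do not overlap, so leaving out 1 library could not reverse a direction. The absence of reversals is therefore no check on these regions. Core word densities kept their direction in every alternative: lost minus kept was 0.163 for GGGAA and TTCCC alone and 1.47 among strong regions, beside 0.891. Promoter shares were 7.28% of lost and 9.38% of gained regions with a start site within 500 bp, and 17.4% and 28.4% with over 20 fragments. The mean presence in the later lists was 10.5% of lost and 74.8% of gained regions, and 8.56% and 92.4% with over 20 fragments, an alternative added after the data were seen. Depth limits what single regions show, since 3 or 4 fragments could already make a peak.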

Other observations

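Lost and gained regions were seldom neighbours. A gained summit lay within 500 bp of 95 lost regions (1.24%), and of 1.67% of unshifted kept regions. At Spib, an ETS-family factor gene of B cells, a region of 11 and 9 fragments at 0h beside the gene was lost, and an untranslated exon with 11 and 9 fragments at 30min was gained, as chosen after the values were seen. In unshifted kept regions the median distance between summits was 18 bp in both pairs of replicates and 19 or 20 bp in the pairs of different times. Lower shifted regions were wide, with a median of 270 bp against 203 bp for unshifted and 199 bp for higher shifted regions, and lost regions, with 149 bp, were wider than gained ones, with 114 bp, although the median number of fragments was 8 in both.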
